A study of Mus musculus with 4 samples.

Results

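At 4 chromatin loops, H3K27ac HiChIP counts were higher in DBA/2J (D2) than in C57BL/6J (B6) mouse embryonic stem cells. Around these loops the higher counts lay on linked anchors of each locus, together with their loops to promoters and to other anchors. In every locus some of these anchors were direct neighbours of each other. The 4 loci were all pairs of anchors with at least 1 anchor in chr4:52900000-53800000, chr10:8200000-8900000, chr10:70000000-71300000 or chr1:90300000-91000000 on GRCm38. They are called here, after genes in or beside them, the Abca1-Slc44a1, Ust-Sash1, Ank3-Bicc1 and Cops8-Mlph loci. The table of read-pair counts held 6191 such pairs of 1513030, which were 1466, 905, 2420 and 1400 pairs in that order, joined by 146 anchors inside the intervals. An anchor is a genomic interval between restriction sites, and a pair of them is termed a loop, whatever its count. The intervals were chosen because each holds a loop with many more counts in D2, so every strain difference given for them is a description of how the difference is laid out, with no test.

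The 4 libraries came from embryonic stem cell lines of 2 inbred strains that carried no engineered allele in the labels. B6 was represented by lines 4-1 and 5-1 and D2 by lines 2-9 and 5-5, with 1 library from each line, so a strain difference rests on 2 lines of each. All cells were grown in serum medium with LIF, the MEK inhibitor PD0325901 at 1 µM and the GSK3 inhibitor CHIR99021 at 3 µM, and were fixed in 1% formaldehyde.

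H3K27ac, acetylation of lysine 27 on histone H3, marks active enhancers and promoters. In HiChIP, DNA ends that lie close together in fixed nuclei are ligated and the products that carry the mark are pulled down, so a loop's count depends both on how often its anchors meet and on how much mark they carry; these cannot be told apart here, nor can a change in every cell from a change in some cells. Enhancers are known to meet promoters over long stretches of DNA, often passing over nearer genes.

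The libraries held 2767882 to 2944258 counts each. D2 replicate 1, whose library name carries 10cyc where the others carry 8cyc, put its counts on 715798 pairs, against 803268 to 833100 in the other libraries. What the mark stands for is not given in the sources used here, and its part in the results was not tested; values without D2 replicate 1 are given beside those it moves. Anchors over start sites were found for 12 of 15 embryonic stem cell genes (not for Esrrb, Tfcp2l1 and Klf2), with median counts from 466 to 596 per library. They were found for 13 of 16 genes of other cell types, with medians from 34 to 49.

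Of the 4 genes whose start-site anchors were joined to another anchor by a loop higher in D2, the 250 bases before the start are shown first, because these are the promoters that the differing loops reach. All 4 matched by symbol in RefSeq (GRCm38.p6). Capitals mark the GC box GGGGCGGGG on either strand, a known binding sequence of SP factors, which 10.4% of 32851 RefSeq windows of this length hold. The windows lie at chr4:53159896-53160145 on the minus strand (Abca1), chr4:53440163-53440412 on the plus strand (Slc44a1), chr10:8886071-8886320 on the minus strand (Sash1) and chr10:70599292-70599541 on the minus strand (Phyhipl). Each is written 5′ to 3′ along its gene.
Abca1: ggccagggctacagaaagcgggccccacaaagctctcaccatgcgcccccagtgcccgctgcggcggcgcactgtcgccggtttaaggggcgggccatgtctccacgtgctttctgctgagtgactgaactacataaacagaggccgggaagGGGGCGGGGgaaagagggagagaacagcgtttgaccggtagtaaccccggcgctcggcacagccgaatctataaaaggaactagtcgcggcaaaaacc
Slc44a1: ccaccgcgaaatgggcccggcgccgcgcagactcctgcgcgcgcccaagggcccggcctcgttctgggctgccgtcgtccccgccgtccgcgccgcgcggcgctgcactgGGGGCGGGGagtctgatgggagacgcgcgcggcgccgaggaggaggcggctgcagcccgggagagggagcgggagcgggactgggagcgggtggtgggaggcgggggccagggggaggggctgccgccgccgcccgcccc
Sash1: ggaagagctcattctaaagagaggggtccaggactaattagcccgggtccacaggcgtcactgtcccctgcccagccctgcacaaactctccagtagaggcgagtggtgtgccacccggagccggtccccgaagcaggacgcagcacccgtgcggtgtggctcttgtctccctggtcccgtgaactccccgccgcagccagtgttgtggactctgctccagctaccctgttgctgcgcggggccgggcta
Phyhipl: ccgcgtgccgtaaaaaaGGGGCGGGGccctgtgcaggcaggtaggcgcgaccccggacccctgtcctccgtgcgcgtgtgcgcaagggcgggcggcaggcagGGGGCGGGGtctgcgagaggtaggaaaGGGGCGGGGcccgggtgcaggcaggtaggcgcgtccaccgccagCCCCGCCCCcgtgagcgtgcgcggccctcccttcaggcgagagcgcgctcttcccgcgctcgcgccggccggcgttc
The Abca1 and Slc44a1 windows hold 1 GC box each, the Phyhipl window 4 and the Sash1 window 0. CpG dinucleotides number 20, 38, 15 and 35 in the order printed, against a median of 6 over all windows, and 17.9% of windows hold at least 20.

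The anchors at the centre of the differences covered no protein-coding start site. The central anchor of each locus, chosen after values were seen as the anchor in most of its loops called higher, was chr4:53334010-53356750, 83.7 kb from the nearest protein-coding start (Slc44a1); chr10:8547820-8563772, 29.0 kb from the start of Ust; chr10:70826842-70865349, 83.1 kb from a start of Bicc1; and chr1:90871535-90911556, 3.53 kb from the start of Mlph. None of these 4 anchors overlapped a protein-coding gene in GENCODE M21, and the one of the Ank3-Bicc1 locus overlapped the start sites of the non-coding genes Gm40689 and Gm48023. They are wide, from 15952 to 40021 bp, where the median anchor of the table spans 4079 bp. The octamer ATGCAAAT, a known binding sequence of POU factors such as the pluripotency factor OCT4, was searched on both strands in each central anchor. It occurs 4 times in that of the Abca1-Slc44a1 locus, where the median of 1506 anchors within 20% of its width is 1 and 68.3% of them hold at least 1 copy. The copies, in capitals with their flanks, lie at chr4:53336437-53336472 (minus strand), chr4:53343863-53343898 (plus strand), chr4:53345612-53345647 (minus strand) and chr4:53353258-53353293 (plus strand).
Octamer 1: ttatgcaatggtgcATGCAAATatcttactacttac
Octamer 2: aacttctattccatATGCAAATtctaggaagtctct
Octamer 3: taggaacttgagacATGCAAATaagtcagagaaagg
Octamer 4: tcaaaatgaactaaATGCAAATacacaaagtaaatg
The central anchor of the Cops8-Mlph locus holds 3 octamers, where the median of 647 anchors of like width is 2. Those of the Ust-Sash1 and Ank3-Bicc1 loci hold 0, where the medians for their widths are 1 and 2. The left neighbour in the Abca1-Slc44a1 locus also holds 0, where the median is 1. The sequence TCAAGGTCA, bound by the nuclear receptor ESRRB, occurs once in the Ank3-Bicc1 and once in the Cops8-Mlph central anchor, where the medians for their widths are 1. These are the letters at chr10:70841268-70841304 (plus strand) and chr1:90886276-90886312 (minus strand).
Ank3-Bicc1: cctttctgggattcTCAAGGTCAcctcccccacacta
Cops8-Mlph: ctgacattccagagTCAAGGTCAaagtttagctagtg
Over the 146 anchors of the loci the octamer occurs 6.41 times per 100 kb, beside 6.29 over all anchors of the table. The ESRRB sequence occurs 2.62 times, beside 3.37. A match is a run of letters in the reference genome, which is that of B6, and shows neither binding nor a D2 allele.

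Of the 6191 loops, 394 had the minimum of 20 counts over the 4 libraries and entered the test of D2 against B6 (edgeR's quasi-likelihood test over 108034 loops, Benjamini-Hochberg adjustment, called at an adjusted p under 0.05). Of all loops tested in the series 1.45% were called, 0.492% higher in D2 and 0.957% lower. In the 4 loci 22 were called higher (5.58%) and none lower: 6 of 102 in the Abca1-Slc44a1 locus, 3 of 47 in the Ust-Sash1 locus, 9 of 159 in the Ank3-Bicc1 locus and 4 of 86 in the Cops8-Mlph locus. At an unadjusted p under 0.05 edgeR placed 79 of the 394 higher and 5 lower, beside 12681 of all 108034 loops in either direction. DESeq2's Wald test also called none lower. The choice of loci used this contrast, so nothing is read from these shares. In each of the 22, both D2 libraries lay above both B6 libraries, and D2 replicate 1 lay above D2 replicate 2 in 21. The former is nearly implied by the call itself with 2 libraries a strain, so nothing is read from it. It also held for 155 of the 372 other tested loops of the loci. Without D2 replicate 1 all 22 log2 fold changes stayed above 0, their median was 1.53 instead of 1.79, and 9 stayed called. DESeq2's Wald test called 6 of the 22. Called loops had a median of 133.5 counts over the 4 libraries and the other tested loops 34, so a difference of one size was more easily called in the former.

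**Figure D1:**
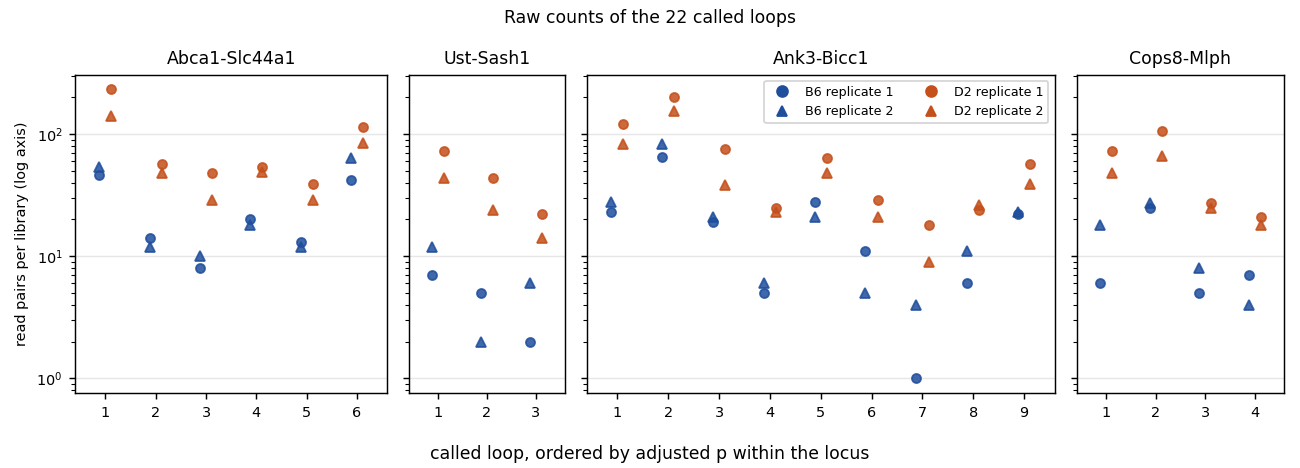
Raw read pairs per library (log axis) of the 22 loops called higher in D2, ordered by adjusted p within each locus; each point is 1 library, blue for B6 and orange for D2, circles for replicate 1 and triangles for replicate 2. In every loop both D2 points lie above both B6 points, which the call itself nearly implies. In 21 of 22 the D2 circle lies above the D2 triangle.

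In the Abca1-Slc44a1 locus, the higher counts in D2 lay on 2 adjacent intergenic anchors and on their loops. These included loops to the promoters of Abca1, the transporter that exports cholesterol and phospholipid from cells, and Slc44a1, a choline transporter. The locus was chosen for the loop that joins the neighbours, chr4:53313519-53329366 and chr4:53334010-53356750, whose midpoints are 23.9 kb apart. It had 46 and 54 counts in the B6 libraries and 233 and 139 in the D2 libraries, replicate 1 first as throughout. Both D2 libraries were high, and D2 replicate 1 the highest. As CPM of the tested counts, B6 stood at 30.9 ± 4.41 and D2 at 110.3 ± 42.8 (SD, n = 2 each), a log2 fold change of 1.83 (SE 0.24), and 1.36 without D2 replicate 1.

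The loops of this pair of anchors ran to both genes. The left anchor and the Slc44a1 start anchor, chr4:53433536-53482492, shared 14 and 12 counts in B6 and 57 and 48 in D2 (log2 fold change 1.94, SE 0.35). Between the right, central anchor and the same start anchor there were 42 and 63 counts in B6 and 113 and 84 in D2 (0.84, SE 0.25), the smallest difference among the called loops. The Abca1 start anchor, chr4:53149580-53161286, and the central anchor, 190 kb apart, shared 8 and 10 counts in B6 and 48 and 29 in D2 (2.02, SE 0.41). An intergenic anchor between them, chr4:53224533-53240389, 64.6 kb from the start of Abca1, had 20 and 18 against 54 and 49 counts with the central anchor (1.37, SE 0.32) and 13 and 12 against 39 and 29 with the left anchor (1.37, SE 0.37). So the 6 called loops formed a connected set, each of them with the central anchor or its left neighbour, and 4 with the central anchor itself. The loop with the most counts in the locus was the one the locus was chosen for.

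Counts summed over all loops of an anchor, called anchor counts here, showed which side of the locus differed. Of all 51820 anchors tested 9.75% were called, 2.67% higher in D2 and 7.08% lower. In the 4 loci 27 of 146 were called higher (18.5%) and none lower, also none by DESeq2's Wald test. At an unadjusted p under 0.05 edgeR placed 55 of the 146 higher and 3 lower, beside 11361 of all 51820 in either direction. As for the loops, nothing is read from these shares. In the Abca1-Slc44a1 locus 9 of 41 were called higher, and all 9 lay at or to the left of the central anchor, toward Abca1. The central anchor had 319 and 353 counts in B6 and 853 and 574 in D2 (1.14, SE 0.19). Its log2 ratio was 1.03, and 0.67 without D2 replicate 1. Its left neighbour had 200 and 207 against 587 and 416 (1.35, SE 0.18). The Abca1 start anchor had 117 and 119 against 221 and 189 (0.84, SE 0.17). Its log2 ratio was 0.73, then 0.55 without its loops to the central anchor and 0.27 without those to any called anchor. Such a drop is partly built in, here and below, since the anchors left out were picked for higher counts in D2. An anchor at the start of Nipsnap3a, chr4:52987640-52990566, was called at low counts, 9 and 11 against 26 and 20 (1.23, SE 0.42), and the start anchor of Nipsnap3b next to it had 38 and 53 against 42 and 45 (-0.03).

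To the right, the start anchor of Slc44a1 had 650 counts in B6 replicate 2, 1 more in B6 replicate 1, and 899 and 836 in D2 (0.46, not called). Its log2 ratio was 0.35, and 0.15 without loops to called anchors. A second Slc44a1 start anchor further right, chr4:53590344-53598017, had 121 and 120 against 115 and 119 (-0.01). Fsd1l had 89 and 96 against 110 and 88, and Tal2, a basic helix-loop-helix transcription factor gene, 101 and 102 against 98 and 117. Neither was called, and for both the libraries of the strains overlapped. In the central anchor, the partners on the left had 134 and 165 counts in B6 and 481 and 325 in D2 (log2 ratio 1.37) and those on the right 185 and 188 against 372 and 249 (0.68). Its partners over a protein-coding start had 92 and 110 against 242 and 158 (0.92). Those without such a start had 227 and 243 against 611 and 416 (1.07).

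**Figure D2:**
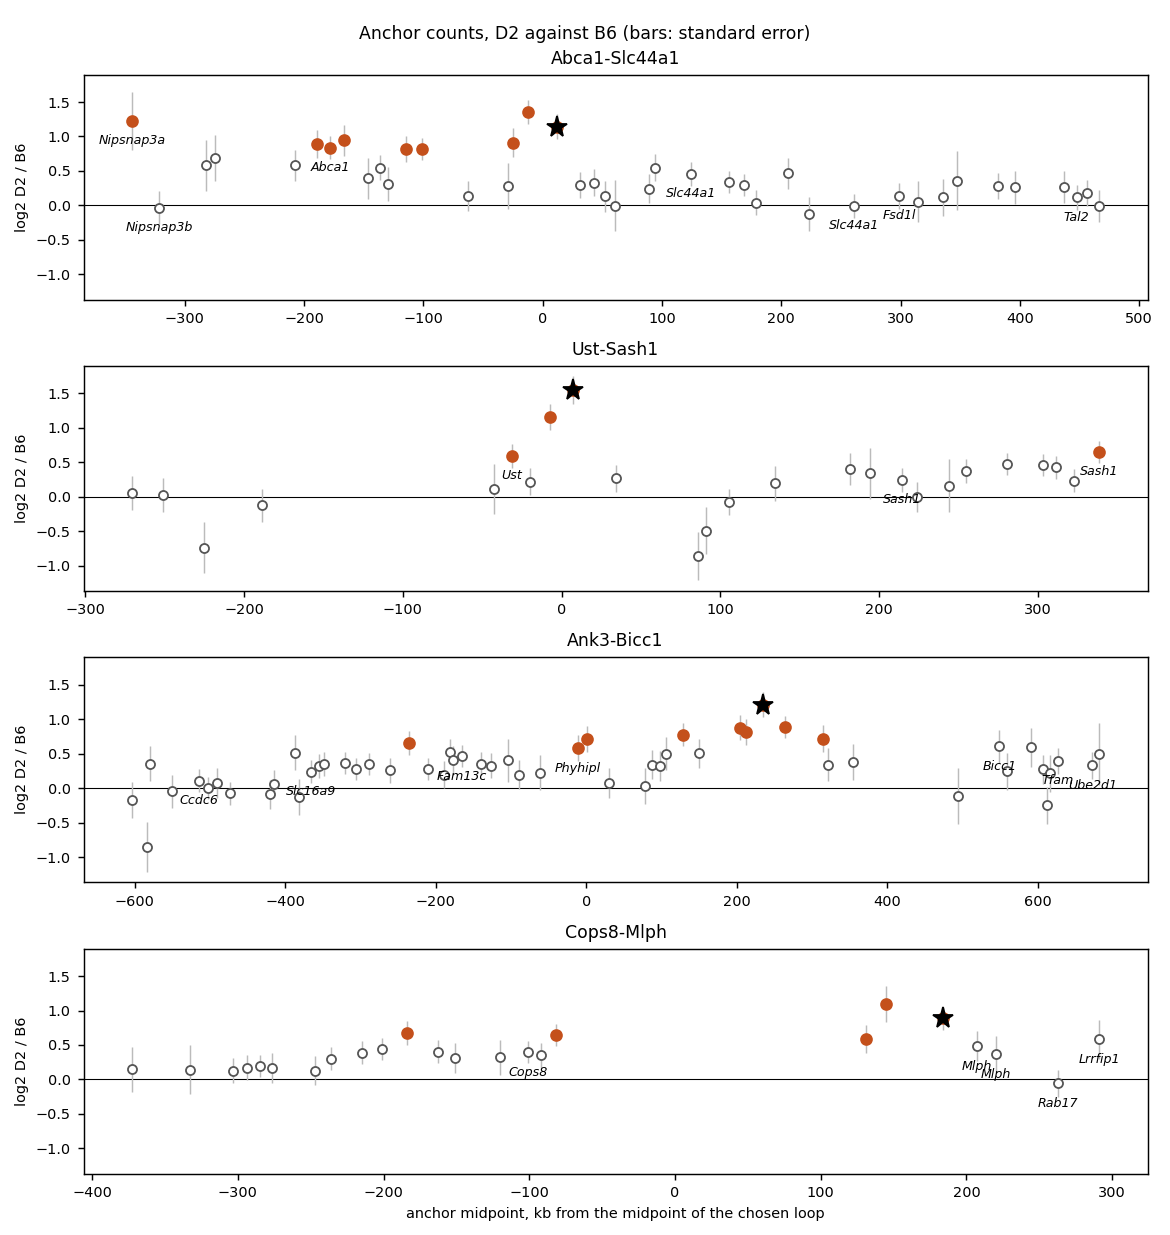
Log2 fold change (D2 over B6) of each anchor's summed counts against its distance in kb from the midpoint of the chosen loop, with standard errors as bars; filled points are anchors called higher in D2, open points are not called, black stars are the central anchors, and gene names mark anchors over protein-coding start sites that the report describes. In the Abca1-Slc44a1 panel the 9 called anchors lie at or left of the star, and the anchors over Fsd1l and Tal2 lie at 0.14 and 0.11.

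In the Ust-Sash1 locus, the higher counts in D2 lay on a pair of intergenic anchors on the 5′ side of Ust, which encodes a sulfotransferase acting on chondroitin and dermatan sulfate, and on loops from there into Sash1, which encodes a signalling scaffold protein. The chosen loop, between chr10:8536335-8546669 and chr10:8547820-8563772, had 7 and 12 counts in B6 and 73 and 44 in D2. The CPM values were 5.90 ± 2.36 for B6 against 34.7 ± 13.2 for D2 (SD, n = 2 each), a log2 fold change of 2.54 (SE 0.39), and 2.09 without D2 replicate 1. The central anchor, the right of the pair, also had 5 and 2 counts in B6 and 44 and 24 in D2 with an anchor over an exon of Sash1, chr10:8811176-8847230, 273 kb away. At a log2 fold change of 3.17 (SE 0.59) this was the largest difference among the 22 called loops. With the Sash1 start anchor, chr10:8876432-8897841, 331 kb away, it had 2 and 6 against 22 and 14 counts (2.07, SE 0.59). With the Ust start anchor, chr10:8512443-8522016, it had 8 and 8 against 27 and 16, which was not called.

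Of 25 anchors 4 were called higher here, namely the chosen pair and the start anchors of both genes. The central anchor had 103 and 108 counts in B6 and 372 and 223 in D2 (1.55, SE 0.20). Its log2 ratio was 1.44, and 0.98 without D2 replicate 1. Its neighbour in the pair had 81 and 84 against 201 and 155 (1.15, SE 0.19). Sash1 had 224 and 278 against 388 and 378 counts at its start (0.65, SE 0.16), with a log2 ratio of 0.49 without loops to called anchors. Ust had 95 and 95 against 148 and 131 (0.59, SE 0.18). Its log2 ratio was 0.36 without D2 replicate 1 and 0.34 without loops to called anchors. A second, internal start of Sash1, chr10:8758161-8767252, had 111 and 111 against 110 and 148, where the strains overlapped. The loop with the most counts joined the exonic Sash1 anchor and the Sash1 start and had 50 and 76 counts in B6 and 121 and 104 in D2 (0.77, not called). Anchors between the pair and Sash1 did not all go the same way: the one 85.9 kb right of the chosen loop's midpoint had 29 and 27 counts in B6 and 14 and 16 in D2 (-0.86, not called), and the next, at 91.0 kb, 24 and 28 against 17 and 19 (-0.49, not called).

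In the Ank3-Bicc1 locus all 9 called loops contained the central anchor chr10:70826842-70865349, which lies between Phyhipl and Bicc1, the gene of a KH-domain RNA-binding protein. The chosen loop ran 471 kb from there to chr10:70355706-70394281, an intergenic anchor 46.2 kb from the start of Fam13c. It had 23 and 28 counts in B6 and 121 and 82 in D2, or 15.8 ± 2.65 and 60.1 ± 18.2 CPM (SD, n = 2 each), a log2 fold change of 1.92 (SE 0.28), and 1.57 without D2 replicate 1. The loop with the most counts, to the next anchor on the right, chr10:70869137-70880299, had 65 and 82 against 202 and 153 (1.21, SE 0.23). A called loop reached the Phyhipl start anchor, chr10:70597392-70601489, at 247 kb, with 11 and 5 against 29 and 21 counts (1.57, SE 0.44). Another reached an exonic anchor of the same gene, chr10:70609228-70615164, with 5 and 6 against 25 and 23 (2.04, SE 0.51), and a further one an exonic anchor of Bicc1, chr10:70922484-70926858, with 6 and 11 against 24 and 26 (1.48, SE 0.44). The partner chr10:70732360-70745590, over the start of the non-coding gene Gm33979, had 19 and 21 against 76 and 38 (1.44, SE 0.31), and its value was 0.81 without D2 replicate 1. The longest called loop, 541 kb to chr10:70299694-70309526, rested on 1 and 4 counts in B6 and 18 and 9 in D2. The remaining 2, to anchors 22.5 and 30.8 kb to the left, had 21 to 28 counts per library in B6 and 39 to 63 in D2.

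The central anchor of this locus had 441 and 443 counts in B6 and 1140 and 831 in D2 (1.21, SE 0.18), the most of the 4 central anchors. Its log2 ratio was 1.10, and 0.81 without D2 replicate 1. Its partners on the left had 306 and 290 counts in B6 and 782 and 562 in D2 (log2 ratio 1.11) and those on the right 135 and 153 against 358 and 269 (1.06), so the difference was of like size in both directions. Of 56 anchors 9 were called higher. Among them were the nearest anchors on the left of the central anchor (0.82, SE 0.19, and 0.88, SE 0.18). Those nearest on its right were called as well (0.89, SE 0.16, and 0.72, SE 0.20). The distal anchor of the chosen loop had 684 and 645 counts in B6 and 1093 and 934 in D2 (0.66, SE 0.18). Its log2 ratio was 0.45 without the central anchor and 0.39 without D2 replicate 1. The Phyhipl start anchor had 71 and 72 against 113 and 95 (0.58, SE 0.19). Its log2 ratio was 0.31 without D2 replicate 1, 0.25 without its loops to the central anchor and about 0 without those to any called anchor. The start anchors of Ccdc6 (0.11), Slc16a9, a monocarboxylate transporter gene (0.24), Fam13c (0.46), Bicc1 (0.61), Tfam, whose product packages and transcribes mitochondrial DNA (0.39), and Ube2d1, a ubiquitin-conjugating enzyme gene (0.33), were not called. These 6 values are log2 fold changes of anchor counts.

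In the Cops8-Mlph locus all 4 called loops contained the central anchor chr1:90871535-90911556, which ends 3.53 kb before the start of Mlph, the gene of melanophilin, a linker of melanosomes to myosin. None of them ended on a protein-coding start; they ran left, away from Mlph. The chosen loop ran 367 kb to chr1:90512495-90536079, an intergenic anchor 66.9 kb from the start of Cops8, a subunit of the COP9 signalosome. It had 6 and 18 counts in B6 and 73 and 48 in D2, or 7.48 ± 5.46 and 35.8 ± 11.6 CPM (SD, n = 2 each), a log2 fold change of 2.26 (SE 0.36). The B6 libraries were uneven here: the value was 1.65 without B6 replicate 1, 3.26 without B6 replicate 2 and 1.88 without D2 replicate 1. The anchor chr1:90618322-90634621, 6.74 kb from the start of Cops8, had 25 and 27 against 105 and 66 counts with the central anchor (1.65, SE 0.28). The other two joined it to chr1:90851585-90854121 beside Col6a3, a collagen VI gene, with 5 and 8 against 27 and 25 (1.91, SE 0.48), and to chr1:90501504-90511450 with 7 and 4 against 21 and 18 (1.74, SE 0.52).

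The direction was uneven in this locus. The central anchor's partners on the left had 205 and 195 counts in B6 and 490 and 403 in D2 (log2 ratio 1.10), and those on the right, toward Mlph, Rab17 and Lrrfip1, had 154 and 148 against 184 and 178 (0.20). The right side was itself uneven. With the central anchor, the start anchors of Mlph had 27 and 32 against 55 and 48 (0.74, no loop called). Rab17 had 19 and 13 against 18 and 19 (0.15), and Lrrfip1 16 and 7 against 14 and 18 (0.42). Summed over all partners the central anchor had 359 and 343 against 674 and 581 (0.88, SE 0.17). Its log2 ratio was 0.78, and 0.63 without D2 replicate 1. Of 24 anchors 5 were called higher, and none of the 5 over a protein-coding start was among them: Cops8 had a log2 fold change of 0.40, the anchors of Mlph 0.48 and 0.36, Rab17, a small GTPase gene, -0.05, and Lrrfip1 0.58. The nearest anchors on the left of the central anchor were called, chr1:90851585-90854121 (1.09, SE 0.26) and chr1:90835400-90842315 (0.59, SE 0.20). As log2 ratios, the first Mlph anchor went from 0.38 to -0.29 without loops to called anchors, and Rab17 from -0.16 to -0.31. The loop with the most counts, chr1:90501504-90511450 with chr1:90512495-90536079, had 105 and 81 counts in B6 and 151 and 121 in D2 (0.49, not called).

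**Figure D3:**
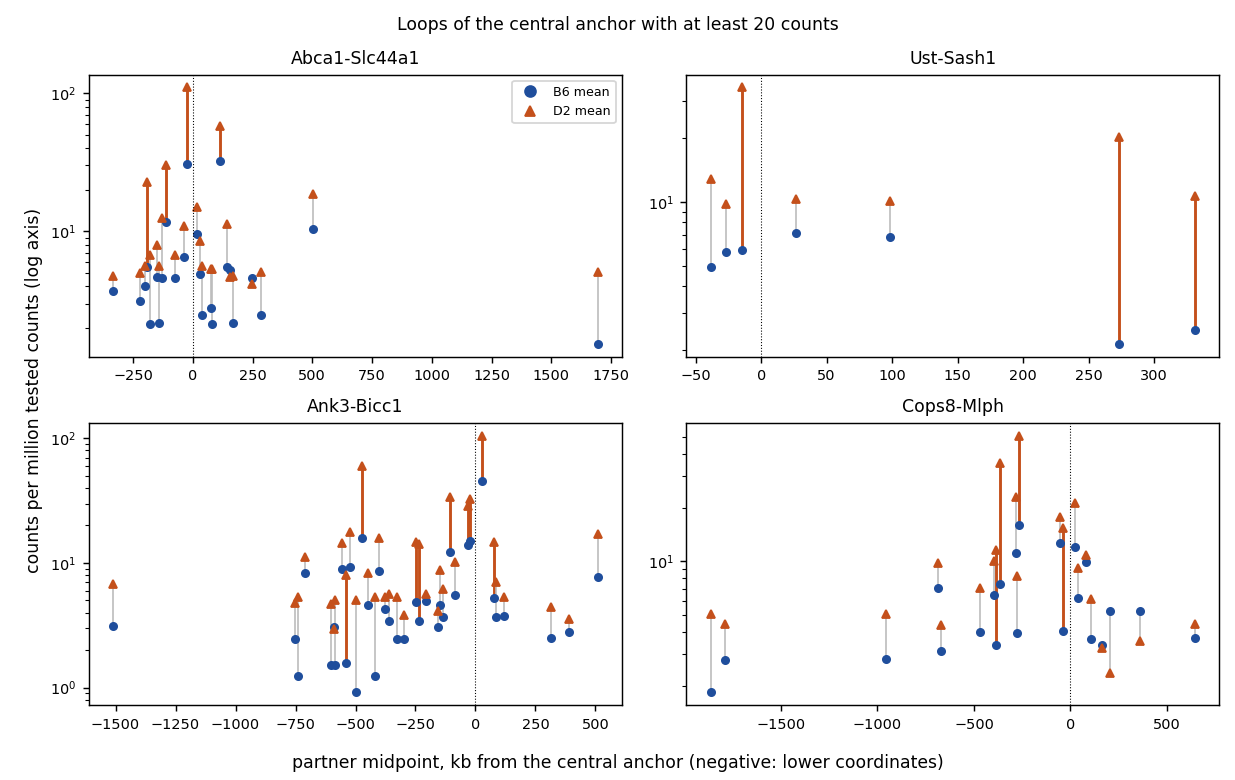
Mean CPM of the tested counts (log axis) of each loop of the central anchor with at least 20 counts, against the distance of the partner in kb, negative toward lower coordinates; blue circles are B6 means and orange triangles D2 means (n = 2 each), and orange lines mark called loops. In the Cops8-Mlph panel the 4 called loops all lie left of the central anchor, and in the Ank3-Bicc1 panel 7 of 9 do.

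The promoters that the differing anchors reach were then counted directly, as all read pairs between an anchor called higher and an anchor over a protein-coding start site, whatever the loop's own count. Such pairs reached 9 genes in the Abca1-Slc44a1 locus, 15 each in the Ust-Sash1 and Ank3-Bicc1 loci and 24 in the Cops8-Mlph locus, of which 8, 8, 11 and 14 had at least 20 counts. Only 4 genes were joined by a called loop, namely Abca1, Slc44a1, Sash1 and Phyhipl. Of the 22 called loops 5 ended on a protein-coding start, 2 of them on that of Slc44a1, and 0 joined a start to another start.

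In the first locus Slc44a1 received the most, 143 and 147 counts in B6 and 275 and 272 in D2, a log2 ratio of 0.85 that was 0.81 without D2 replicate 1. Abca1 had 34 and 38 counts in B6 and 110 and 93 in D2 (1.43), and 1.27 without that library. Both D2 libraries stood above both B6 libraries for each gene. Tmem38b, a gene of a cation channel of the endoplasmic reticulum 502 kb away, had 56 and 53 against 96 and 59 counts, and its log2 ratio of 0.45 was 0.015 without D2 replicate 1. The counts of Fsd1l and Tal2 overlapped between strains, with 11 and 18 against 28 and 13 for Fsd1l and 7 and 8 against 7 and 6 for Tal2.

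In the Ust-Sash1 locus Sash1 had 22 and 27 counts in B6 and 50 and 55 in D2 (1.03), and Ust 20 and 18 against 44 and 33 (0.96, and 0.70 without D2 replicate 1). Further genes were reached at low counts: Pcmt1, which encodes a protein repair methyltransferase, had 12 and 11 against 33 and 15 (1.01), and this was 0.28 without D2 replicate 1. Tab2, an adaptor of the TAK1 kinase, had 11 and 9 against 22 and 18 (0.94). The D2 libraries were close to each other for Sash1 and Tab2 and far apart for Pcmt1.

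In the Ank3-Bicc1 locus Fam13c received 110 and 99 counts in B6 and 166 and 165 in D2 (0.60), the most of the locus, and Phyhipl 26 and 26 against 62 and 51 (1.06), the largest ratio among its genes with at least 50 counts. At 430 kb from the nearest called anchor, Ipmk, an inositol phosphate kinase gene, had 57 and 43 against 81 and 73 (0.56) and Cisd1, a gene of a mitochondrial iron-sulfur protein, 51 and 36 against 76 and 60 (0.59, and 0.37 without D2 replicate 1). Cdk1, the mitotic cyclin-dependent kinase, lay 1039 kb away and had 16 and 19 against 31 and 31 (0.76). Bicc1, whose nearest start lies 83.1 kb from the central anchor, was counted at an anchor over another of its starts, 314 kb from the central anchor. That anchor had 6 and 12 against 12 and 16 counts, where the strains overlapped only in a shared value of 12. Tfam had 14 and 16 against 14 and 14 (-0.17). Ank3, from which the locus takes part of its name, had 24 and 12 against 27 and 27, and the start sites counted lie outside the interval.

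In the Cops8-Mlph locus Cops8 had 72 and 67 counts in B6 and 118 and 109 in D2 (0.64), Mlph 30 and 43 against 75 and 62 (0.84) and Ackr3, an atypical chemokine receptor gene outside the interval, 45 and 39 against 73 and 54 (0.54, and 0.26 without D2 replicate 1). Rab17 had 24 and 22 against 27 and 26 (0.14). The homeobox gene Gbx2, 589 kb away, had 8 and 16 against 20 and 24. These ratios describe how the counts of the called anchors are spread over promoters; being counted through anchors called higher, they do not show that a promoter differs.

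**Figure D4:**
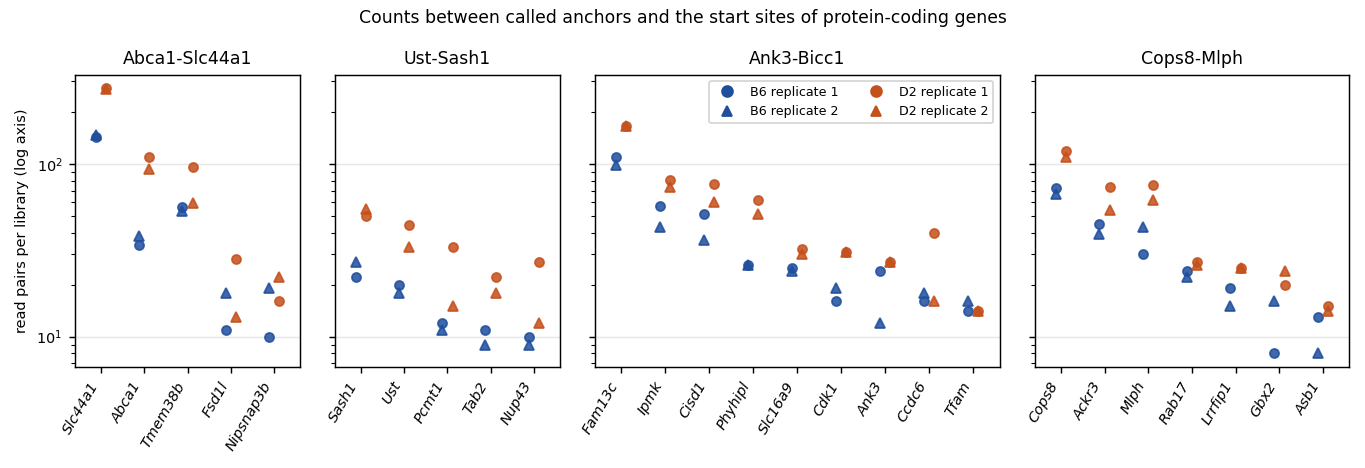
Read pairs per library (log axis) between the called anchors of a locus and anchors over the start sites of each protein-coding gene with at least 50 such counts over the 4 libraries; blue is B6 and orange D2, circles replicate 1 and triangles replicate 2. Abca1 goes from 34 and 38 to 110 and 93 counts, while Tfam stays at 14 to 16 in all libraries.

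Neighbouring loops were grouped by how they were connected to the called loops, so the group without such a connection cannot hold a called loop. The group sharing an anchor with the chosen loop holds 18 called loops, so its higher ratio is partly built in. Nothing is read from the numbers called or from the order of the groups. Loops that shared an anchor with the chosen loop of their locus had 2527 and 2462 counts in B6 and 4748 and 3812 in D2, a log2 ratio of 0.72 over 703 pairs; 155 were tested, with a median log2 fold change of 0.75 (0.47 without D2 replicate 1), and 18 were called. Loops that shared an anchor only with another called loop had 2335 and 2283 against 2745 and 3043 (0.26 over 1074 pairs). The other 4410 loops of the 4 loci had 4574 and 4474 counts in B6 and 4298 and 5119 in D2 (-0.01), with a median of 0.19 among the 137 tested. Over all tested loops the median log2 fold change was 0.02. The other loops had D2 replicate 1 below and D2 replicate 2 above both B6 libraries. By locus the log2 ratios of the other loops were 0.02, -0.06, -0.01 and -0.03, beside 0.88, 1.03, 0.71 and 0.56 for the loops that share an anchor with the chosen one. These sums include the pairs under the count minimum. Among tested loops alone, the medians of the other loops were 0.18, 0.22, 0.08 and 0.45. In the Cops8-Mlph locus 23 of 29 tested other loops were above 0, and their median exceeded the 0.27 of loops sharing an anchor with another called loop.

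**Figure D5:**
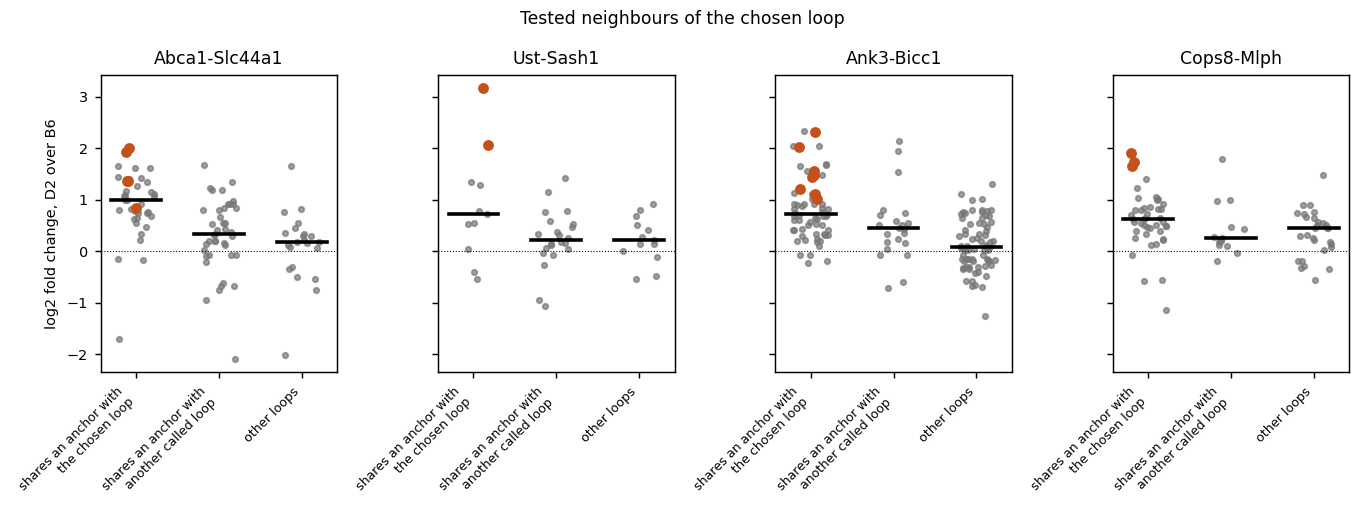
Log2 fold change (D2 over B6) of the tested loops of each locus, grouped by whether they share an anchor with the chosen loop, with another called loop or with neither; orange points are called higher in D2, grey points are not called, and bars are medians. The chosen loops themselves are left out, and the medians for sharing an anchor with the chosen loop are 1.00, 0.73, 0.73 and 0.62 in the order of the panels.

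The loops were also split by the central anchor; since that anchor was picked for its called loops, the split describes where the counts lie and supports nothing further. The 370 loops with a central anchor had 1222 and 1247 counts in B6 and 3039 and 2209 in D2 (log2 ratio 1.03), and the 5821 without one had 8296 and 8084 against 9252 and 10078 (0.17). Of the 22 called loops 20 held a central anchor. In the order of the report, the central anchors' loops to protein-coding starts had log2 ratios of 0.92, 1.59, 1.08 and 0.56. Their other loops had 1.07, 1.39, 1.10 and 0.89. In the Abca1-Slc44a1, Ust-Sash1, Ank3-Bicc1 and Cops8-Mlph loci the central anchor held 15.2%, 7.96%, 11.8% and 16.5% of the B6 counts, and its loops made up 52.0%, 55.3%, 59.8% and 52.0% of the extra counts in D2. The 142 other anchors had a median log2 ratio of 0.21, of 0.17 without their loops to the central anchor and of 0.08 without those to any called anchor, a step that takes out the loops with the higher counts.

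Whole loci differed less than their central anchors, an order that follows from how those anchors were picked. The Abca1-Slc44a1 locus summed to 2176 and 2247 counts in B6 and 3147 and 2881 in D2 (log2 ratio 0.38, and 0.28 without D2 replicate 1). The Ust-Sash1 locus had 1328 and 1322 against 1748 and 1708 (0.32), the Ank3-Bicc1 locus 3864 and 3649 against 4735 and 4888 (0.29) and the Cops8-Mlph locus 2150 and 2113 against 2661 and 2810 (0.29). Over 1601 windows of 1 Mb with at least 1000 counts the median was -0.02 and the middle 90% ran from -0.70 to 0.35. The flanks of 1000 kb before and after each locus stood at -0.26 and -0.12, 0.29 and -0.05, -0.20 and 0.10, and -0.01 and -0.22. The flank before the Ust-Sash1 locus was close to its locus, and the other 7 flanks were below theirs. Windows and flanks were summed over pair ends, placed by anchor midpoint, so a pair inside them counts at both ends. Flanks also hold ends of pairs that run into the locus. Loci were summed over pairs, so the comparison is between unlike measures.

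The authors' files also give each pair a value between 0 and 1 per library, a p or q of the loop caller. At a value under 0.01, all 22 called loops passed in both D2 libraries, 12 passed in all 4 libraries and 6 in both D2 but neither B6 library. Most called loops were therefore found by the caller in at least 1 B6 library too, and 205 loops of the loci in all 4 libraries. Over all 6191 loops 695 and 673 passed in the B6 libraries and 795 and 817 in the D2 libraries. Of these loops 96 passed in both D2 but neither B6 library, and 38 in both B6 but neither D2 library. The loci were chosen for higher D2 counts, so nothing is read from the difference between the strains here.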

How the data were processed

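Read pairs were processed with HiC-Pro 2.11.4 against mm10, per the submitters' processing notes; the notes also name DESeq2, with no role. The loop caller and its settings, and any handling of D2 variants in mapping, are not given in the sources used here. The authors deposited raw counts per pair of anchors for the 4 libraries, and the same counts per library (24764 values of the loci compared, 0 unequal) beside a p-value or q-value of their caller. The deposited loop width (unit other) was taken as the distance between anchors. Both ends of all 56562 anchors fell on a GATC site, which DpnII cuts, in GRCm38, and coordinates are printed as deposited.

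Loops with at least 20 counts over the 4 libraries, and anchors (sums over their loops) likewise, were tested for D2 against B6 over the whole table with edgeR 4.0.16 (quasi-likelihood test, TMM factors, strain as the only term, R 4.3.3) and Benjamini-Hochberg adjustment; the code was tested on simulated data. Fold changes are log2 of D2 over B6; log2 ratios of summed counts use the tested totals times the TMM factors, and so do counts per 1000000 (CPM). Those 2 kinds of value are close but not equal. For anchors the ratios, which use the loop totals and factors, run below the fold changes. With 2 libraries a strain the smallest exact permutation p is 0.333, and no such test was used. The lines are separate, but 2 per strain limit what the spread can show. Alternatives were DESeq2 1.42.0 (size factors, Wald test), other totals, other count minimums, a replicate block and leaving out each library. Replicate numbers did not pair the libraries (correlation of deviations -0.002 for loops and 0.009 for anchors).

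Named loops were, per locus, the loop with the smallest adjusted p (the chosen loop), further called loops by adjusted p up to 5 and the loop with the most counts; further called loops and anchors of single results were named after their values were seen. Promoters shown were those joined by a called loop, also chosen after values were seen. Members and gene lists were chosen with earlier results of these data known.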

Additional observations from a re-analysis of the deposited data

How the results depend on the processing

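The 22 called loops kept a log2 fold change above 0 under every alternative that tested them (21 of the 22 at a minimum of 40 counts), and the chosen loops ranged from 1.36 to 3.26 over them; that of the Cops8-Mlph locus was not called by DESeq2's Wald test. How many were called depended on the test and the libraries. DESeq2's Wald test called 96 loops and 1307 anchors of the table, of which 6 loops and 11 anchors of the loci were higher; with no count minimum these were 759, 2563, 14 and 16. Leaving out 1 library gave 325 to 2029 loops and 2589 to 7660 anchors in all, against 1565 and 5054, with 8 to 33 loops and 16 to 37 anchors of the loci higher, 0 to 1 loops lower and 0 anchors lower. With B6 replicate 1, B6 replicate 2 or D2 replicate 1 left out, 8, 9 and 9 of the 22 stayed called. With the replicate block 1343 loops and 5903 anchors were called, 20 of the 22 among them; the libraries share only a number.

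The median log2 fold change of loops sharing an anchor with the chosen loop ran from 0.47 to 0.95 when 1 library was left out. For loops sharing an anchor with another called loop it ran from 0.23 to 0.42, was 0.41 with TMM factors over all pairs or no minimum, 0.30 with totals within distance bands and 0.21 at a minimum of 40 counts. For the other loops it ran from 0.11 to 0.26, was 0.26 with TMM factors over all pairs or no minimum and 0.13 at a minimum of 40. Grouping by the central anchor, which was chosen after seeing the data for its called loops, gave 0.90 with it and 0.33 without it, against 0.47 for all tested loops. Log2 ratios of whole loci, in the order of the report, were 0.53, 0.19, 0.16 and 0.31 with totals within each chromosome, and 0.38, 0.36 and 0.36 for the last 3 with library totals alone; leaving out 1 library they ran from 0.28 to 0.48, 0.27 to 0.37, 0.28 to 0.30 and 0.28 to 0.31. Loops with few counts limit the rest: 5797 of the 6191 fell under the minimum and could not be called in either direction.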
